A study of Bos taurus with 12 samples.

Results

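The response of milk fat RNA to postruminal lysine was examined in the 3 Holstein cows whose library names carry the code B1, which are cows 4319, 4383 and 4394. They were chosen by that code alone and contributed 6 of the 12 libraries of the study, 1 control and 1 lysine library each; the other 6 libraries came from 3 cows coded B2. All cows were in early lactation, and their age is not given in the sources used here. The control group received no treatment that the labels name, and the label of the lysine group gives postruminal lysine for 63 days. Library names carry the codes 0 and 63 for the treatment, and whether this 63 is a duration or an amount is not settled by the labels. A further code P, whose meaning is not given, was 3, 4 and 1 in the control libraries of cows 4319, 4383 and 4394 and 2, 3 and 4 in their lysine libraries. Treatment and P code therefore differ together within every cow, and their parts in a difference between the 2 libraries of a cow cannot be told apart.

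Lysine is an essential amino acid that often limits milk protein output in dairy cows, and supplying it beyond the rumen spares it from breakdown by rumen microbes. In the mammary gland it enters secretory cells through cationic amino acid transporters and is built into the caseins and whey proteins, and amino acid supply also acts on translation through the mTOR pathway. Milk fat globules are released with small crescents of secretory cell cytoplasm, so RNA of the fat layer samples the transcripts of lactating epithelium without biopsy. Milk also carries leukocytes and shed cells, and in bulk RNA fewer cells of a type and less RNA per cell cannot be told apart. The deposited table names genes by Ensembl cattle IDs only, and none of its 24616 IDs could be paired with a symbol. Genes are therefore referred to by their abundance rank or by identifier, and the share of any cell type in these libraries was not tested.

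The 6 libraries held between 5.45 and 31.1 M counts (M stands for mega), and the deeper library of a pair was the control in cow 4319 and the lysine library in the other cows. In cow 4319 the control held 31.1 M and the lysine library 5.45 M, in cow 4383 they held 7.40 and 28.7 M, and in cow 4394 they held 13.3 and 17.9 M. Genes with at least 1 count numbered 13205, 12224 and 10687 in the control libraries of cows 4319, 4383 and 4394 and 12250, 14096 and 12198 in their lysine libraries. The control library of cow 4394 stood furthest apart. Of the 10937 genes tested, 955 (8.73%) had no count in it, against 21 to 240 in the other 5 libraries. Its log2 expression correlated at 0.70 to 0.79 with the other 5 libraries across 7215 genes at a mean of 5 CPM (counts after scaling every library to the same total) or more, whereas the 4 libraries of cows 4319 and 4383 correlated at 0.87 to 0.91 with each other. The lysine library of cow 4394 correlated at 0.75 to 0.82 with those 4 libraries, also below their range, and had 240 tested genes without a count. Both libraries of this cow thus stood apart, the control more so. The counts of genes, the named genes and the precision are therefore also given without cow 4394.

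Neither depth nor library make-up differed in a set direction with lysine. Libraries held 17.3 ± 12.3 M counts in control and 17.3 ± 11.6 M with lysine (mean ± SD, n = 3 each, exact permutation of signs over 3 cows, p = 1). Genes detected were 12039 ± 1269 in control and 12848 ± 1081 with lysine, with 2 of the 3 cows higher (exact permutation of signs, p = 0.5). The 10 most abundant genes of a library took 67.6 ± 7.65% of counts in control and 72.7 ± 12.3% with lysine, with 2 of the 3 cows higher (exact permutation of signs, p = 0.75). The two-sided test over 3 cows cannot give a p below 0.25, and the adjusted p over the 3 measures was 1 for each.

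A few genes made up most of the RNA in all 6 libraries, and with lysine their shares moved by cow rather than together. The 8 most abundant genes, ranked by mean share over the 6 libraries, took 75.1%, 65.2% and 59.3% of counts in the control libraries of cows 4319, 4383 and 4394 and 65.7%, 85.3% and 63.0% in their lysine libraries. The most abundant gene held 21.1%, 17.1% and 20.4% in control and 18.2%, 17.0% and 22.7% with lysine, so the groups overlapped. The second most abundant gene held 22.9%, 21.3% and 4.04% of counts in the 3 controls and 17.2%, 45.8% and 3.65% with lysine. Its share was thus higher with lysine in cow 4383 and lower in cows 4319 and 4394, and both libraries of cow 4394 lay below every library of the other cows. Within each pair of cows 4319 and 4383 the larger share of this gene stood in the deeper library, and in cow 4394 in the shallower; the part of depth was not tested. Without the second gene the other 7 took 52.3%, 43.9% and 55.3% of counts in control and 48.5%, 39.5% and 59.3% with lysine.

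**Figure D1:**
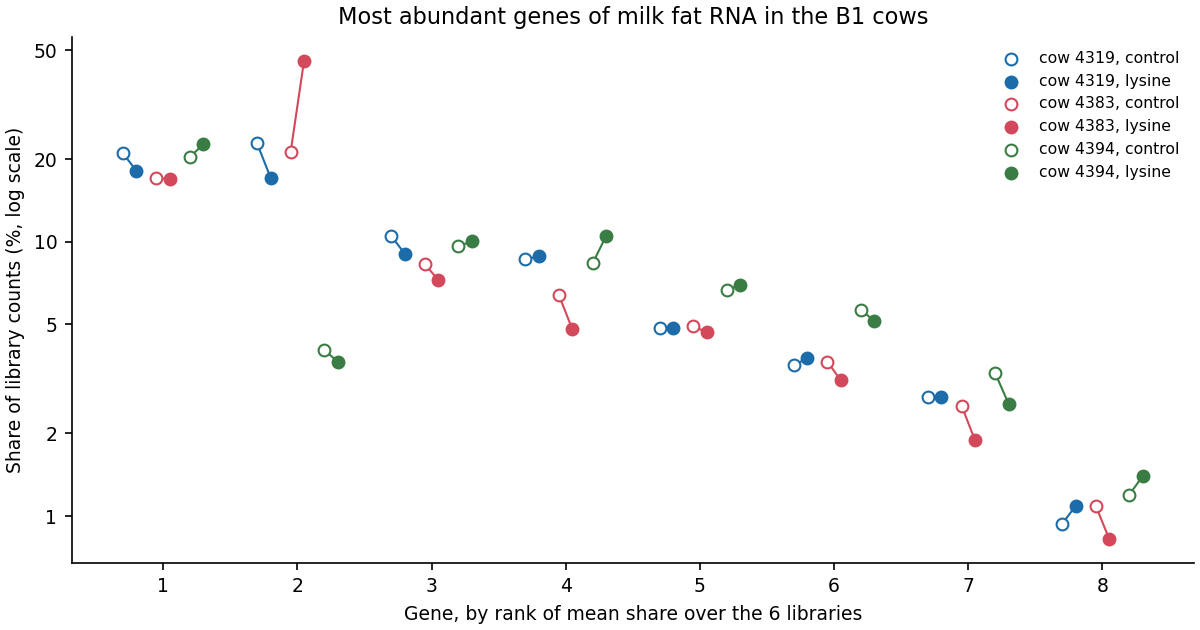
Share of library counts (percent, log scale) held by each of the 8 most abundant genes in control (open) and lysine (filled) libraries, with a line joining the pair of a cow. The second gene spans 3.65% to 45.8%, while the third spans 7.27% to 10.5%.

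The third to eighth genes held narrower shares. The third gene took 9.48 ± 1.12% in control and 8.79 ± 1.41% with lysine (mean ± SD, n = 3 each), and the fourth 7.79 ± 1.23% and 8.04 ± 2.93%. The fifth gene took 5.50 ± 1.04% and 5.49 ± 1.26%, and the eighth 1.074 ± 0.130% and 1.104 ± 0.287%. The sixth gene took 4.29 ± 1.18% and 4.01 ± 1.03%. In these 5 genes the group means lay closer together than the spread within a group. The seventh gene took 2.85 ± 0.415% in control and 2.39 ± 0.443% with lysine, a gap slightly above either SD, with overlap between the groups (2.53% to 3.32% and 1.89% to 2.72%). None of the 8 genes passed the threshold in the test described next, with log2 fold changes of 0.19 to 0.58 and standard errors of 0.50 to 0.85. These positive values rest on the scaling and on cow 4383: the lysine library of that cow had a TMM normalisation factor of 0.439, so that the most abundant gene was 1.51 higher on the log2 scale after normalisation although its share was 17.1% in the control and 17.0% with lysine. With library totals as the only scaling 6 of the 8 had a log2 fold change below 0, and without cow 4383 also 6.

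The main comparison asked whether lysine changed the transcriptome of these 3 cows, each cow serving as its own control. No gene passed: of 10937 genes tested, 0 (0%) fell below an adjusted p of 0.05 by the quasi-likelihood test of edgeR, blocked by cow and adjusted after Benjamini and Hochberg. The lowest adjusted p of any gene was 0.9998. Before adjustment 163 genes (1.49%) had a p under 0.05, a fraction below the 0.05 that evenly spread p-values would give. Of the 163, 50 (0.457% of those tested) were higher and 113 (1.03%) lower with lysine. The median log2 fold change of all tested genes was 0.05. DESeq2 and limma voom called 0 genes too, with 379 and 447 at an unadjusted p under 0.05. The excess of lower over higher genes was met with limma voom (139 higher, 308 lower). It was not met with DESeq2 (205 higher, 174 lower) or with all 12 libraries in 1 fit (239 higher, 222 lower). Library totals as the only scaling gave 4 higher and 85 lower, with the median of all genes at -0.40. Without cow 4394 no gene was called by edgeR and 146 stood at an unadjusted p under 0.05, 53 higher and 93 lower. Without cow 4383 there were 364, 152 higher and 212 lower, and without cow 4319 the numbers were closer, at 117 higher and 127 lower.

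**Figure D2:**
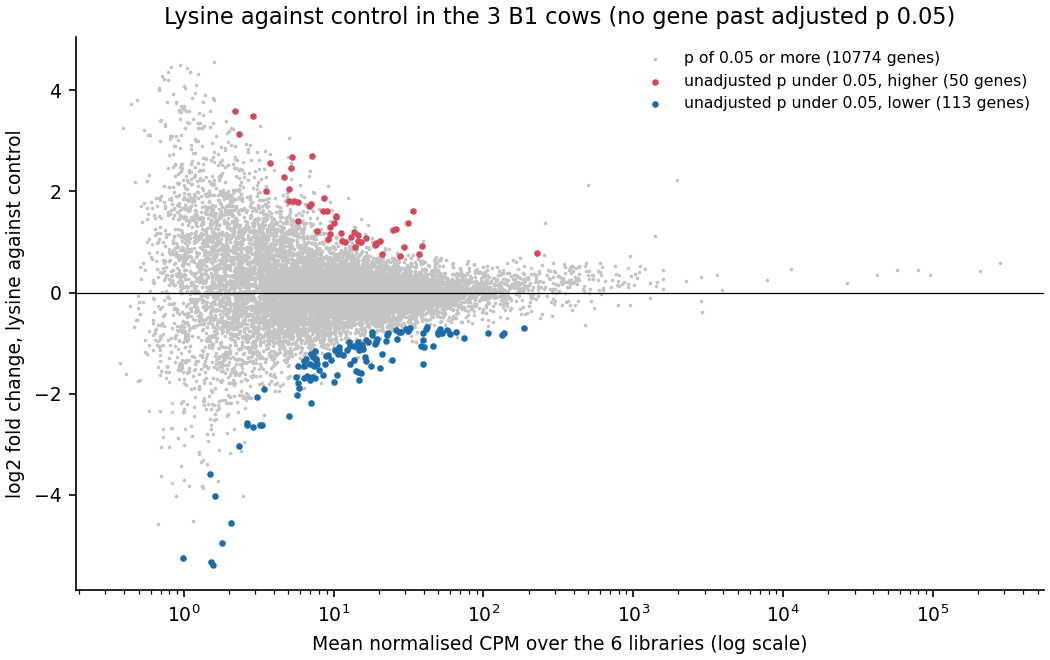
The log2 fold change of lysine against control for each of the 10937 genes tested in the 3 B1 cows, by mean normalised CPM (log scale). The 50 higher and 113 lower genes at an unadjusted p under 0.05 lie mostly between 5 and 100 CPM, and the 30 genes at 1000 CPM or more hold none.

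By abundance, the 163 genes came mainly from the middle of the range. Of the 4387 genes at 5 to 20 CPM, 33 were higher and 65 lower at an unadjusted p under 0.05 (2.23%), and of the 2402 genes at 20 to 100 CPM, 10 were higher and 29 lower (1.62%). Among the 396 genes at 100 to 1000 CPM, 1 was higher and 4 lower, and among the 30 genes at 1000 CPM or more there was none. The 3722 genes below 5 CPM gave 6 higher and 15 lower genes. The control library of cow 4394 had no count for 898 of these scarce genes and for 57 of the genes at 5 to 20 CPM. Without cow 4394 the genes below 5 CPM gave 17 higher and 36 lower, those at 5 to 20 CPM 26 and 47, those at 20 to 100 CPM 5 and 10, and those at 100 CPM or more 5 and 0.

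All 3 cows were higher with lysine for 1191 genes (10.9%) and lower for 1181 (10.8%), together 2372 of the tested genes (21.7%); in the 3 B2 cows, fitted alone, all 3 shared a direction for 38.5% of genes. The 3 lysine libraries all lay above the 3 controls for 363 genes (3.32%) and all below for 358 (3.27%), or 721 in all (6.59%). Without cow 4394 the remaining 2 cows shared a direction for 4839 genes (44.2%), 2399 higher and 2440 lower, and the groups did not overlap for 2948 (27%); with fewer cows both conditions are easier to meet.

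The genes with the smallest p in each direction are given with the values of all 6 libraries. They were picked by p among genes at 5 CPM or more that moved the same way in all 3 cows, so their direction is a result of the choice, and none passed the adjusted threshold. ENSBTAG00000020143 measured 3.43, 1.18 and 0.78 normalised CPM in the control libraries of cows 4319, 4383 and 4394 and 12.1, 7.86 and 5.77 in their lysine libraries. All 3 lysine libraries lay above all 3 controls, from a low level. Its log2 fold change was 2.45 ± 0.65 (SE, 3 cows; 95% interval 0.998 to 3.91), or 5.48-fold (edgeR unadjusted p = 0.0038, adjusted p = 0.9998).

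ENSBTAG00000037803 measured 16.3, 15.8 and 16.9 normalised CPM in the 3 controls and 24.3, 42.2 and 71.8 with lysine, in the same order of cows. The controls were close to each other while the lysine libraries were spread, without overlap between the groups. Its log2 fold change was 1.37 ± 0.36 (SE; 95% interval 0.55 to 2.18), or 2.58-fold (edgeR unadjusted p = 0.0039, adjusted p = 0.9998). Without cow 4394 the log2 fold change was 1.02 for this gene and 2.24 for ENSBTAG00000020143. The 10 genes that the rule gave as higher had mean levels between 5.002 and 33.7 CPM.

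On the lower side, ENSBTAG00000005299 measured 43.0, 44.3 and 13.2 normalised CPM in the 3 controls and 22.7, 19.4 and 3.52 with lysine. The groups overlapped, because both libraries of cow 4394 were below all libraries of the other cows, while each cow was lower with lysine. Its log2 fold change was -1.33 ± 0.35 (SE; 95% interval -2.10 to -0.56; edgeR unadjusted p = 0.0033, adjusted p = 0.9998). ENSBTAG00000001060 measured 82.3, 33.0 and 68.7 in control and 45.7, 14.2 and 31.6 with lysine, also with overlap. Its log2 fold change was -1.06 ± 0.28 (SE; 95% interval -1.70 to -0.43; edgeR unadjusted p = 0.0040, adjusted p = 0.9998). The within-cow changes of this gene were similar in size, at -0.85, -1.21 and -1.12 on the log2 scale. Without cow 4394 the log2 fold change was -1.01 for this gene and -1.04 for ENSBTAG00000005299.

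**Figure D3:**
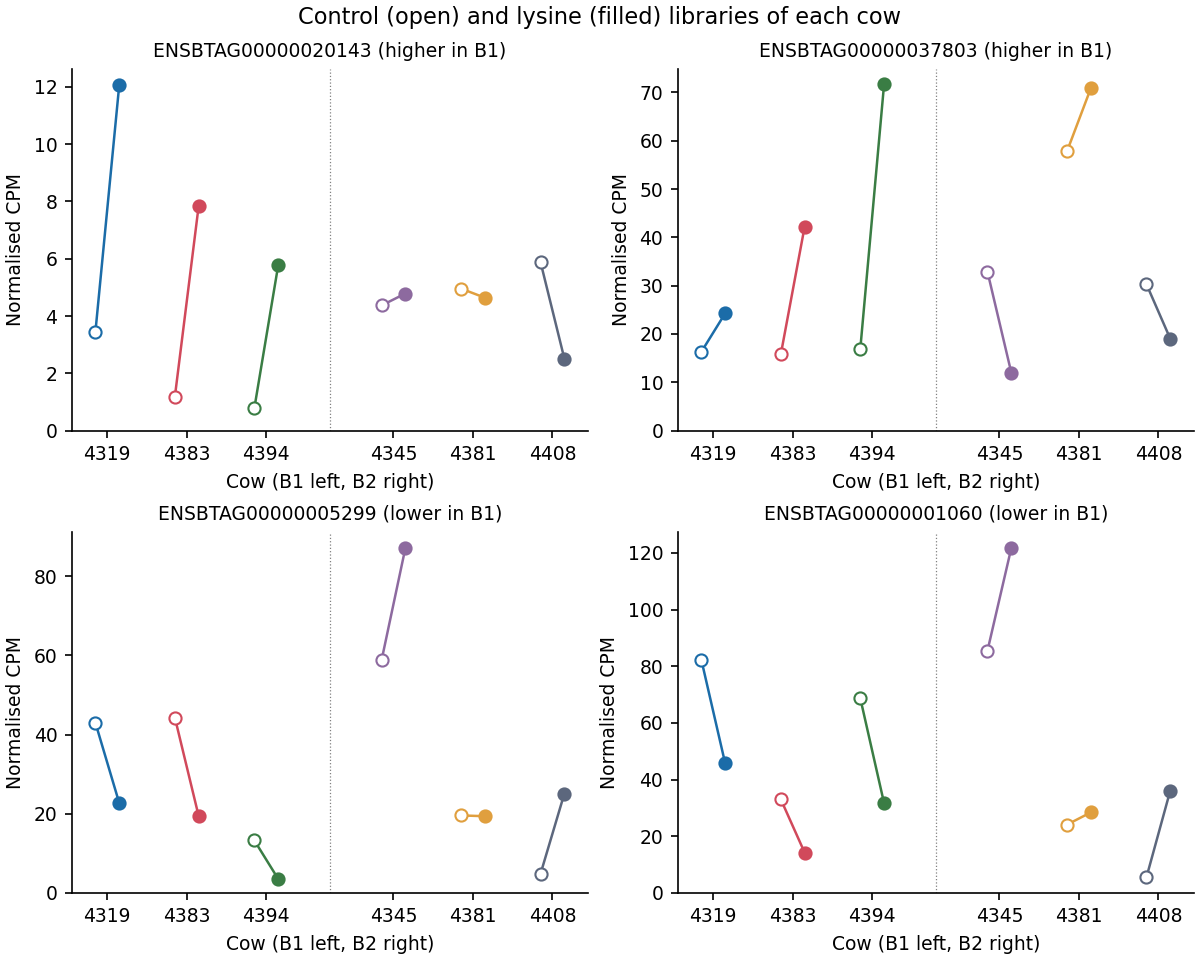
Normalised CPM of the 4 genes named for their small p in the B1 cows, in control (open) and lysine (filled) libraries of each cow. B1 cows are on the left and B2 cows on the right of each panel, scaled in separate fits; the direction shared by the 3 B1 cows was a condition of the choice and is not shared by all 3 B2 cows for any of the 4.

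The size of the change with lysine differed between the cows. Over the 7215 genes at 5 CPM or more, the SD of the within-cow log2 change was 0.71 in cow 4319, 0.70 in cow 4383 and 1.17 in cow 4394. In cow 4394, 1072 of these genes were more than 2-fold higher with lysine and 979 more than 2-fold lower (28.4% together). The share was 13.2% in cow 4319, with 354 higher and 599 lower, and 12.6% in cow 4383, with 608 higher and 303 lower. Cow 4394 had the widest spread in all ranges of abundance but that of 100 to 1000 CPM. At 5 to 20 CPM the SD was 1.36 in cow 4394 against 0.78 and 0.73 in cows 4319 and 4383, at 20 to 100 CPM it was 0.75 against 0.55 and 0.58, and at 1000 CPM or more 1.60 against 1.19 and 1.03. At 100 to 1000 CPM the SD was 0.73 in cow 4394, 0.72 in cow 4319 and 0.87 in cow 4383. The part of the control library of cow 4394, with its 8.73% of tested genes at 0, was not tested.

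Few genes changed more than 2-fold in the same direction in all 3 cows. Of the 3029 genes that differed more than 2-fold in at least 1 cow, 2 were more than 2-fold higher and 14 more than 2-fold lower in all 3, and 496 were more than 2-fold higher in 1 cow and more than 2-fold lower in another. The within-cow changes correlated across the 7215 genes at a Pearson r of -0.24 between cows 4319 and 4383, -0.02 between cows 4319 and 4394 and -0.04 between cows 4383 and 4394 (Spearman rho -0.22, 0.02 and -0.03). Genes are not independent of each other, and the cows share a normalisation, so these values describe the 3 pairs without a test. Cows 4319 and 4383, with the most negative of these values, differed most in relative depth: the lysine library was the shallower in the one and the deeper in the other, with totals of 5.45 against 31.1 M and 28.7 against 7.40 M; the part of depth was not tested. Both had a P code 1 lower in the lysine library.

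**Figure D4:**
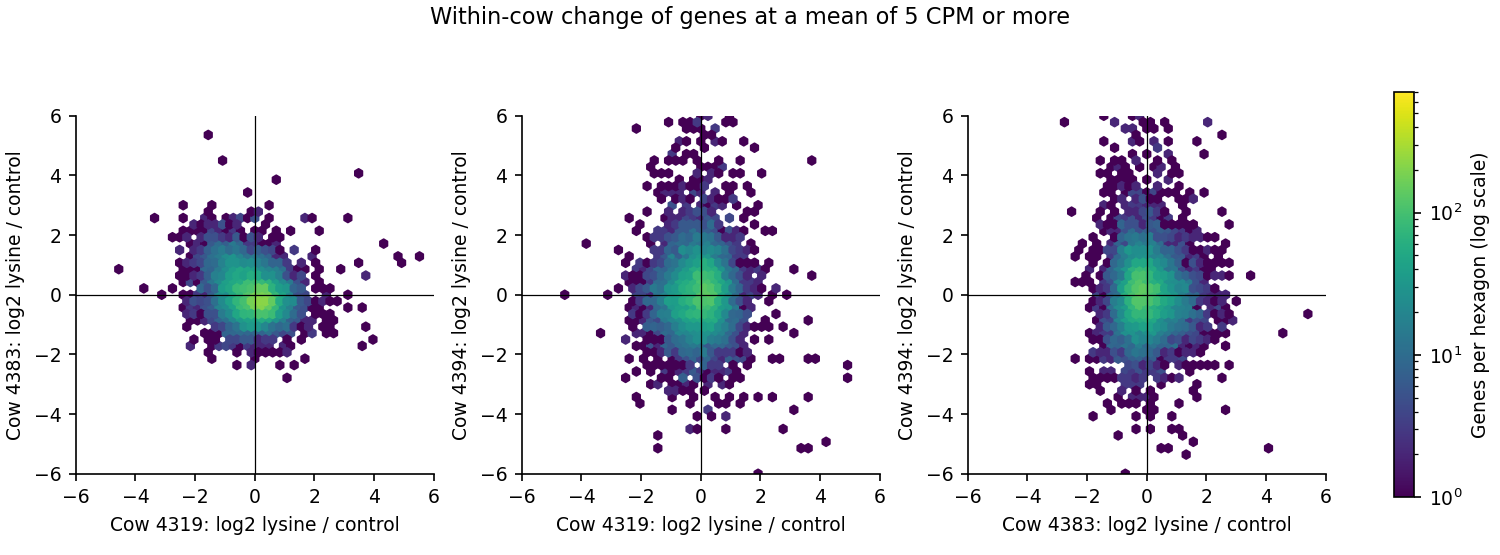
Within-cow log2 change (lysine against control) of 7215 genes, each panel setting 1 B1 cow against another, with colour for the number of genes. The clouds show no rise along the diagonal, and that of cow 4394 is the widest; 17 genes with a change beyond 6 in a cow lie outside the axes.

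The precision of 3 pairs bounds what could be seen. The 95% interval of a gene at 5 CPM or more had a median half-width of 0.93 (log2), which is 1.90-fold. Both its bounds stayed inside 2-fold for 2034 of 7214 such genes with an interval (28.2%) and inside 4-fold for 6439 (89.3%). At 20 to 100 CPM the median half-width was 1.65-fold, at 5 to 20 CPM it was 2.13-fold and at 1 to 5 CPM it was 6.33-fold. The 30 most abundant genes, at 1000 CPM or more, were again less precise, at 2.13-fold. These intervals carry no multiple-testing correction. Without cow 4394 the median half-width at 5 CPM or more was 2.01-fold, and the interval lay inside 2-fold for 1007 genes (14.0%) and inside 4-fold for 6508 (90.2%).

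Differences among the 3 cows were tested with treatment in the model. Of the 10937 genes, 4 (0.0366%) differed between cows at an adjusted p below 0.05 in the F test of edgeR on the cow terms, and 918 had an unadjusted p below 0.05. The 4 are named here after their values were seen. ENSBTAG00000022590 measured 0.75 and 0.56 normalised CPM in the control and lysine library of cow 4383, against 56.8 and 36.6 in cow 4319 and 35.3 and 47.7 in cow 4394 (adjusted p = 0.0185). Each library of cow 4383 held 7 counts of this gene.

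ENSBTAG00000023028 was low in cow 4394 only, at 4.80 and 3.94 CPM in control and lysine, and measured 35.8 to 63.9 in the 4 libraries of the other cows. ENSBTAG00000009725 was high in cow 4394, at 59.4 and 57.6 CPM, against 2.90 to 6.03 in the other 4 libraries. ENSBTAG00000026779 was high in cow 4319, at 71.6 and 76.5 CPM, against 7.06 to 13.0 in the others. The edgeR adjusted p of these 3 genes was 0.0302 each. In all 4 genes the control and lysine library of a cow lay on the same side of the gap between cows. Picking genes by the test of the cow terms favours this. The count hung on the setting: it was 328 with DESeq2, 121 with limma voom, 245 without a low-count filter, 9 without cow 4319, 226 without cow 4383 and 1 without cow 4394.

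The lysine response of the B1 cows was set beside that of the 3 B2 cows, whose libraries are all separate. The test of the difference called none of 12312 genes (0%; edgeR interaction test over 12 libraries, lowest adjusted p 0.664), while 839 (6.81%) had an unadjusted p below 0.05. DESeq2 called 43 genes and limma voom 0. In the fit of the B2 cows alone 12.3% of genes stood at an unadjusted p under 0.05, against 1.49% in B1. That B2 fit called 1 of 11851 genes, which was lower with lysine (edgeR, adjusted p = 0.0392). Over the 10831 genes tested in both, the fold change had the same sign in B1 and B2 for 43.9% (Pearson r across genes -0.14).

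Most genes at an unadjusted p under 0.05 in the B1 cows had the opposite sign in the B2 cows: 41 of the 163 (25.2%) had the same sign. Of the 113 genes lower with lysine in B1, 18 (15.9%) were also lower in B2, and their median log2 fold change was -1.23 in B1 and 0.73 in B2. Of these genes 33 (29.2%) had an unadjusted p under 0.05 in B2, and 0 of the 33 had the sign of B1. Over all 10831 genes tested in both, 1435 (13.2%) had such a p in B2, and 480 of the 1435 had the sign of B1. Of the 50 higher genes 23 (46.0%) were also higher in B2, with medians of 1.28 and -0.04. Cow 4408 carried much of the opposite direction: only 12 of the 113 genes were lower with lysine there, with a median change of 1.87, against 31 in cow 4345 (median 0.45) and 51 in cow 4381 (median 0.01).

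Cow 4408 had P codes of 1 in the control and 4 in the lysine library, as did cow 4394. Each of the other B1 cows likewise shared the P codes of both its libraries with a B2 cow. In cow 4394 the median change of the same genes was -1.72, below 0 because they were picked as lower in B1. The part of the P code was not tested. Without cow 4408, 38 of the 113 genes (33.6%) were lower in B2, and 45.2% of all genes had the same sign in B1 and B2. Picking the genes from the B1 fit without cow 4394 gave 93 lower genes, of which 19 (20.4%) were lower in B2. Without cow 4319 it was 16 of 124 and without cow 4383 it was 55 of 212. The same sign over all genes was then 49.3%, 41.9% and 45.5%. Genes that vary together between libraries count many times in such shares, and no test was made of them.

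**Figure D5:**
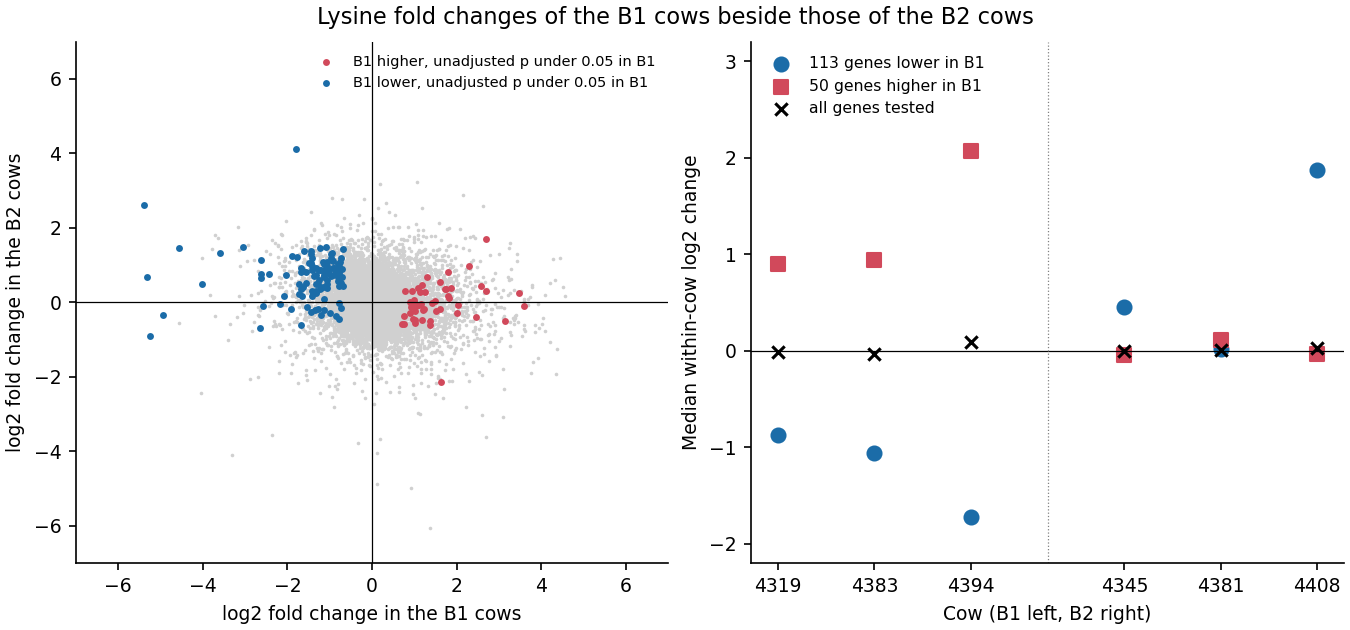
Left, log2 fold change of each gene in the B1 cows against that in the B2 cows, with genes at an unadjusted p under 0.05 in B1 in colour. Right, the median within-cow log2 change of the same genes in each cow; the 113 lower genes lie between -0.87 and -1.72 in the B1 cows, as they were chosen to, and at 0.45, 0.01 and 1.87 in the B2 cows.

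For the 4 named genes the B2 libraries gave their own values. ENSBTAG00000020143 measured 4.37, 4.96 and 5.89 normalised CPM in the controls of cows 4345, 4381 and 4408 and 4.79, 4.64 and 2.51 with lysine, a log2 fold change of -0.38 ± 0.43 (SE). ENSBTAG00000037803 measured 32.9, 57.8 and 30.3 in control and 11.97, 70.9 and 19.0 with lysine, or -0.61 ± 0.32. Both were higher with lysine in 1 of the 3 B2 cows. ENSBTAG00000005299 measured 58.7, 19.6 and 4.79 in control and 87.1, 19.4 and 25.1 with lysine, or 0.93 ± 0.45, and was lower in 1 of 3 cows. ENSBTAG00000001060 measured 85.5, 24.1 and 5.48 in control and 121.8, 28.4 and 36.1 with lysine, or 1.09 ± 0.49, and was lower in 0 of 3. The difference in log2 fold change between B1 and B2 was 2.83, 1.97, -2.28 and -2.17 for these genes in that order (edgeR interaction test, unadjusted p 0.0029, 0.0023, 0.0017 and 0.0022, adjusted p 0.681, 0.681, 0.664 and 0.664), so none of the 4 differences passed the threshold. The B1 values by which the genes were picked also enter this test, so the choice favours large differences and small unadjusted p.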

How the data were processed

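The authors deposited raw read counts of each gene in each library as whole numbers, neither normalised nor pooled, per the file headers and values; aligner, counter, strand setting, build and annotation: not given in the sources used here. Each column name is the description of 1 sample, and groups, cows and B and P codes come from it. The cows and lists were chosen with earlier results of these data known. No ID matched the 37063 RefSeq genes used here, so the gene and marker lists written for this work were not tested, and no sequences are shown.

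The 6 B1 libraries were filtered (edgeR filterByExpr: a count of 10 at the median total, 0.641 CPM, in at least 3 libraries), leaving 10937 of 24616 genes and 99.9% of counts, and scaled by TMM within the 6. Quasi-likelihood models (robust) of treatment with cow as a block (edgeR 4.0.16, R 4.3.3, 2 residual degrees of freedom per gene) were tested two-sided. The code was also run on simulated data, a run that is no measure of the power in these data. SEs come from dividing a log2 fold change by the root of its F statistic. Log2 CPM used a prior count of 2. The B1 against B2 test used all 12 libraries and 12312 genes. DESeq2 1.42.0 and limma 3.58.1 were alternatives. Cow is the block because both libraries come from 1 animal; deviations from the group means correlated at 0.18, 0.12 and 0.28 within cows 4319, 4383 and 4394 and at -0.31 to 0.19 (median -0.12) between cows, and 2 of 3 controls correlated best with the lysine library of their own cow; centring on means of 3 lowers the values between cows. Named genes are the 8 most abundant and, as none passed, those with the smallest p per direction at a mean of 5 CPM or more with all 3 cows in 1 direction, 10 each, of which 2 are printed by ID. The fit of the B2 cows alone and genes at a common depth were added after the data were seen. Depth covers counting error only, since reads that carry no molecular identifiers may be copies of 1 molecule.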

Additional observations from a re-analysis of the deposited data

Results flagged for a closer look

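ENSBTAG00000001060 was lower with lysine in all 3 B1 cows and higher in all 3 B2 cows. The within-cow log2 changes were -0.85, -1.21 and -1.12 in cows 4319, 4383 and 4394 and 0.51, 0.24 and 2.70 in cows 4345, 4381 and 4408. The difference in log2 fold change, B1 minus B2, was -2.17 ± 0.56 (SE; edgeR interaction test, unadjusted p = 0.0022, adjusted p = 0.664), so it did not pass the threshold over all genes. The shared direction in the B1 cows was a condition for naming the gene, and the B1 values behind that choice also enter the interaction test. Groups of 3 libraries were too small to test for single libraries that stand apart.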

How the results depend on the processing

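The count of 0 genes for lysine in B1 was met in all 10 alternatives, and no cow left out gave a call. Genes at an unadjusted p under 0.05 (163) were 89 with library totals only, 379 with DESeq2, 447 with limma voom, 253 without a low-count filter, 461 with all 12 libraries in 1 fit and 146 to 364 with a cow left out. With no replicate block the lysine test called 0 genes, 121 at an unadjusted p under 0.05, and blocking changed no call. The 4 named genes kept their direction in all 40 alternative values and passed in none, a direction their choice fixed in part. Of 80 values of the 8 most abundant genes 12 reversed: with library totals only, ranks 1, 3, 4, 5, 6 and 7 were at -0.022, -0.12, -0.016, -0.0090, -0.10 and -0.26, and without cow 4383 ranks 1, 2, 3, 5, 6 and 7 turned negative. With a cow left out these ran from -0.11 to 0.97, -0.36 to 1.38, -0.16 to 0.83, -0.053 to 0.88, -0.11 to 0.71 and -0.26 to 0.50. The 4 genes that differed between cows became 34 with library totals only, 328 with DESeq2, 121 with limma voom, 245 with that filter off, 40 at a mean of 5 CPM or more and 1 to 226 with a cow left out; the 918 at an unadjusted p became 418 with library totals only and 397 to 1209 with a cow left out. For B1 against B2, 0 genes became 30 with the low-count filter off, 43 by DESeq2 and 0 to 1 when a cow was dropped (1 without cow 4394); the 839 at an unadjusted p became 391 with library totals only, 1266 with DESeq2, 1400 with limma voom, 364 with no replicate block and 369 to 1292 with a cow left out (369 without cow 4345, 1292 without cow 4319 and 534 without cow 4408). Mean differences, lysine minus control, were 0.07 M in total counts (-10.5 to 12.9 M with a cow left out), 809 in genes detected (-133 for genes at 10 counts or more, 399 at a common depth, 278 to 1692 with a cow left out) and 5.10 percentage points for the 10 most abundant genes (-2.55 to 11.98 with a cow left out). The cause of these shifts was not tested. Leaving out a cow leaves 2 pairs and 1 residual degree of freedom per gene.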
